A study of Homo sapiens with 2 samples.

Results

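The ULK complex is the kinase complex that starts the formation of autophagosomes, and the values below describe the peaks of the transcription factor NRF1 around its 5 genes, ULK1, ULK2, ATG13, RB1CC1 and ATG101. The genes were taken as the known subunits of the complex, 5 of the 20163 protein-coding genes in the annotation. The choice was made with earlier results of these data known, and the study had itself focused on ULK1. A peak was assigned to a gene when its centre lay within 50 kb of any annotated transcription start site (TSS) of the gene. NRF1 here is NFE2L1, and not nuclear respiratory factor 1, a different protein that shares the name. Chromatin was immunoprecipitated with an anti-NRF1 antibody from HCT116 cells, a human colorectal carcinoma cell line, after 16 h in 1 µM MG132, a peptide aldehyde that inhibits the proteasome. An input library came from cells that received MG132 in the same way, and it was not analysed here, so that both samples carried the treatment and no untreated cells were compared. With 1 ChIP library there was no replicate error and no test, and every value below is a description of that library.

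The ULK complex relays nutrient and stress signals to the autophagy machinery. ULK1 and ULK2 are its alternative serine/threonine kinases, RB1CC1 (also called FIP200) is the large scaffold, and ATG13 bridges kinase and scaffold together with its partner ATG101. The kinase mTORC1 restrains the complex when nutrients are plentiful, and AMPK can activate it when energy is low. NRF1 is made as a membrane protein of the endoplasmic reticulum and is normally degraded by the proteasome. When the proteasome is inhibited, a processed form reaches the nucleus and binds antioxidant response elements (AREs) together with a small Maf protein.

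Of the 5 genes, 3 had an NRF1 peak within 50 kb (ULK1, ULK2 and RB1CC1), where 32.7% of all protein-coding genes and 24.6% of all annotated genes had one. Within 2 kb of a TSS, 2 of the 5 had a peak (ULK1 and RB1CC1), where 6.03% of protein-coding genes did. ATG13 and ATG101 had none within 50 kb. These counts used any TSS, and the 5 genes have 7 to 28 annotated TSSs, against a median of 5 for protein-coding genes. Measured to the canonical TSS, ULK1 (1789 bp) and RB1CC1 (865 bp) had a peak within 50 kb and ULK2 (88441 bp) did not. By that measure 27.3% of protein-coding genes had one. Among peaks with a score of at least 100 alone, 2 of the 5 had one within 50 kb, against 17.6% of protein-coding genes, and 1 within 2 kb, ULK1, against 3.01%. With 5 genes, these are counts rather than a rate, and no test was run on them. The 3 genes together held 4 peaks, 2 at ULK1, 1 near ULK2 and 1 at RB1CC1. The farthest of these lay 33860 bp from a TSS, with a score of 191.33, and the nearest peak outside the window lay 88441 bp from a TSS of ULK2, with a score of 77.43.

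The score is the value that MACS gave each peak, the negative log10 of its p-value multiplied by 10. The deposited list held 5683 peaks, with scores from 50.00 (a p-value of 1e-05) to 3100, a median of 91.86 and quartiles of 65.36 and 152.13. Peaks had a median width of 501 bp and a median GC content of 45.3%. Read depth was unknown, because the list gives no read counts. A gene without a peak is therefore one at which none passed the authors' threshold in this library, and occupancy below it cannot be seen.

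**Figure D1:**
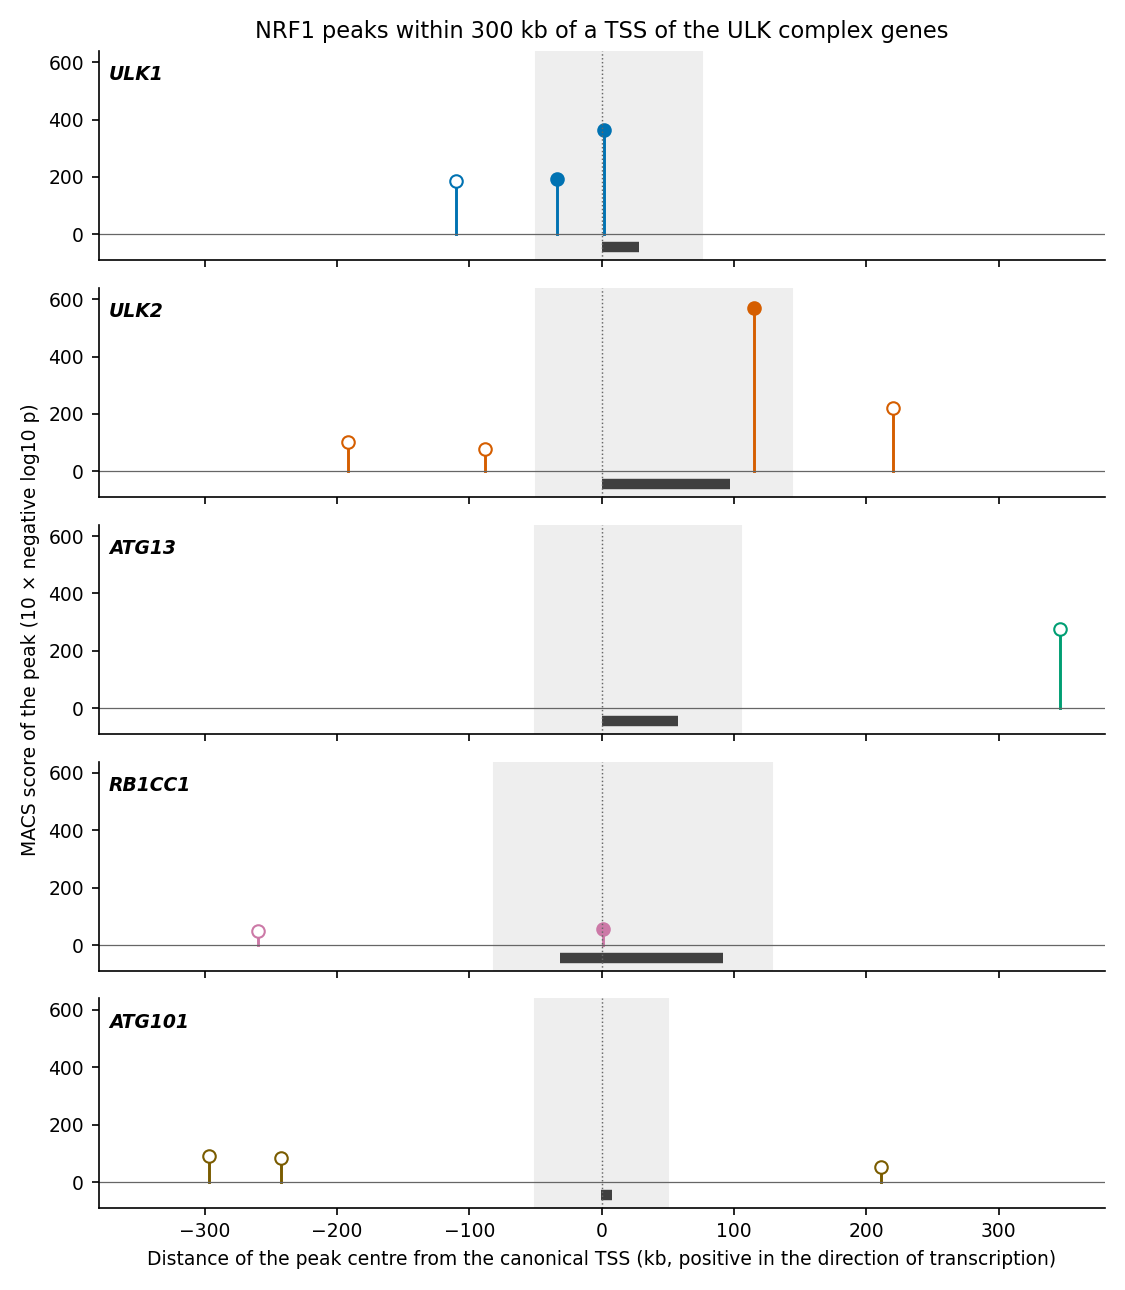
Peaks whose centre lay within 300 kb of a TSS of each gene of the ULK complex, by distance from the canonical TSS (x axis, kb, positive in the direction of transcription) and MACS score (y axis). Filled circles mark the 4 peaks within 50 kb of a TSS, open circles the others, the grey band the stretch from 50 kb before the first to 50 kb after the last TSS, and the dark bar the gene. ULK1 has 2 filled circles, ULK2 and RB1CC1 have 1 each, and ATG13 and ATG101 have none.

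ULK1, the kinase best known for starting autophagy, carried the stronger of the 2 peaks found within 2 kb of a TSS. ULK1 (ENSG00000177169) lies on the plus strand at chr12:132379167-132407695 of hg19 and has 28 exons in its canonical transcript. Its peak at chr12:132380588-132381324 had a score of 363.96, which ranked 272 in the list, and 95.2% of peaks scored lower. The centre lay 1789 bp downstream of the canonical TSS, in intron 3, which spans 11067 bp and begins 218 bp before the peak. Among protein-coding genes, 5.75% had a peak nearer to a TSS than ULK1 did. The nearest TSS of another protein-coding gene, PUS1, was 32789 bp from the centre. A TSS of ENSG00000279283, a gene of the class still to be experimentally tested, was only 89 bp away.

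The ULK1 peak lacked the longer form of the ARE that most peaks of the list held. AREs were searched on both strands as TGACNNNGC or TGAGNNNGC, the consensus of the study, and as the longer form TGACTCAGC or TGAGTCAGC, in which all 3 free bases are set. In the list, 87.4% of peaks held the consensus and 61.3% the longer form. The ULK1 peak held 1 consensus match and no longer form. Of the 271 peaks that scored higher, 72.3% held the longer form and 75 lacked it. The consensus match and the best near match to the longer form are shown because no other window of this peak matched the consensus or came within 1 mismatch of the longer form. Capitals mark the 9 bases of the match, read 5′ to 3′ on the strand that matched, with 10 bases on both sides:
ULK1 consensus match, chr12:132380730-132380738, plus strand: gtgtgtttgtTGACATTGCtcctgcggcc
ULK1 near match, chr12:132381034-132381042, minus strand: cacagagccaTTAGTCAGCactttggcgg

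Counted from 1 at the first T of the longer form, with position 4 free to be C or G, the consensus match differed from it by T5A, C6T and A7T. It lay 222 bp upstream of the peak centre, 1567 bp from the TSS. The near match differed by G2T alone, which removes the G that the consensus requires at that position, and lay 82 bp downstream of the centre, 1871 bp from the TSS. In the peaks of the list whose best match had at most 1 mismatch, that match lay a median of 31 bp from the centre. The near match overlapped TGCTGAC on the plus strand, a half-site of the kind that Maf proteins are known to bind, which 18.6% of peaks held. The half-site was chosen after its presence here was seen.

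The 200 bp around the centre of the ULK1 peak, chr12:132380857-132381056, held no consensus match. Within that central stretch, 82.8% of peaks held a window with at most 1 mismatch to the longer form, and the ULK1 peak was among them through the near match. The stretch is shown on the plus strand, with the near match in capitals as it reads on that strand:
ULK1 peak centre: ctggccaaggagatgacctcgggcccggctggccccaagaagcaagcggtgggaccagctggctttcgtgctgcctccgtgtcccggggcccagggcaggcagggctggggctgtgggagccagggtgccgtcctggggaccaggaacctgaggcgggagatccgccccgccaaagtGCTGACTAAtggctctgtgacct

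The base composition of the ULK1 peak was unusual for the list as a whole, and peaks near a TSS were not compared separately. Its GC content was 69.2%, above that of 97.9% of peaks, and its width of 737 bp exceeded that of 92.5%. It held 3 matches to GGGCGG, the core letters of the SP1 motif, which 17.4% of peaks held, and 1 to CCAAT, which 50.6% held. It held no match to TGACTCA or TGAGTCA, the AP-1 letters within the longer ARE, which 75.0% of peaks held. The motif of nuclear respiratory factor 1 was absent from all 4 peaks near the genes of the complex and was present in 0.212% of the list. The E-box CACGTG, the core of the motif bound by TFEB, a regulator of lysosome and autophagy genes, was also absent from the 4 peaks and was present in 7.17% of the list.

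The primers that the study used for ChIP-qPCR at the ULK1 ARE matched a stretch of 109 bp at chr12:132380709-132380817. The study reported recruitment of NRF1 to this site after MG132, and its values were not used here. The amplicon ran from 1542 to 1650 bp downstream of the TSS and its centre lay 193 bp upstream of the peak centre. It contained the consensus match and not the near match. It is shown because it places that measurement within the peak, on the plus strand with the consensus match in capitals:
ULK1 ChIP-qPCR amplicon: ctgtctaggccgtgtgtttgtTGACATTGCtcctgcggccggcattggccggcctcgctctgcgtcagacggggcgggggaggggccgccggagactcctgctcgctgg

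**Figure D2:**
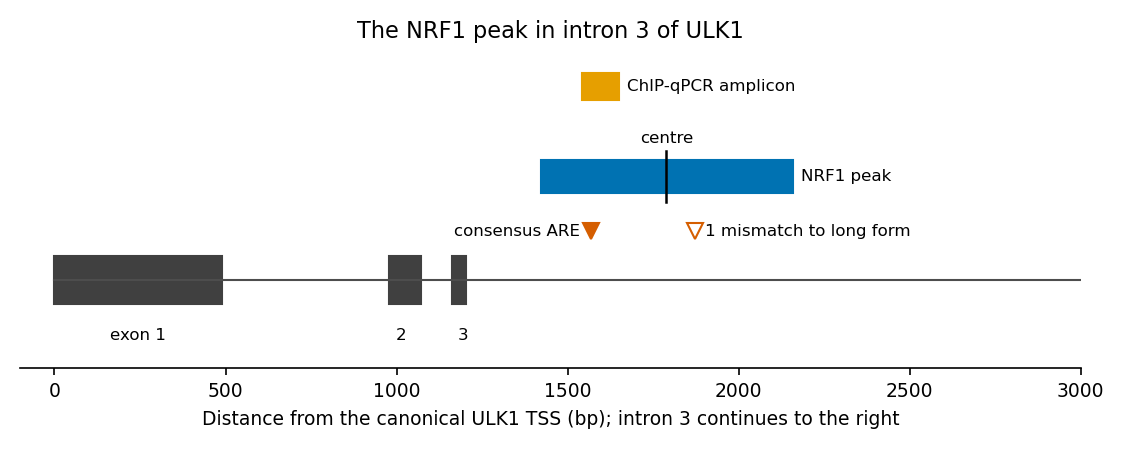
Map of the first 3000 bp of ULK1, drawn to scale by distance from the canonical TSS (x axis, bp). Dark boxes are exons 1 to 3, the blue bar is the NRF1 peak with its centre marked, the orange bar is the ChIP-qPCR amplicon, the filled triangle is the consensus ARE and the open triangle the near match. The amplicon covers the consensus ARE, 222 bp upstream of the centre, and the near match lies 82 bp downstream of it.

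Another peak lay 33860 bp upstream of the ULK1 TSS, outside any exon or intron of the gene. This peak at chr12:132345008-132345606 had a score of 191.33 (rank 973), and 82.9% of peaks scored lower. It was nearer to MMP17, a matrix metalloproteinase gene, with a TSS 15801 bp from the centre, and nearer still to the long non-coding RNA gene ENSG00000256955, at 3342 bp. Distance alone does not say which of these genes, if any, a peak acts on. Its 1 consensus match lay 68 bp from the centre and differed from the longer form by T5A only:
ULK1 upstream peak, chr12:132345235-132345243, plus strand: ctgggagaggTGACACAGCagcttttagt

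With 58.4% GC, above 88.0% of peaks, the upstream peak was also rich in GC. The study's annotation sheet lists the intron 3 peak for ULK1. The copy used here is shortened, and nothing is drawn from the peaks missing in it. A further peak, 110236 bp upstream of ULK1 and 918 bp from a TSS of SFSWAP, a splicing regulator, had a score of 186.98 and held the longer ARE. Within 500 kb of the canonical TSS, ULK1 had 3 peaks, the same as the median of protein-coding genes (quartiles of 1 and 4), so that its 2 peaks within 50 kb were most of those in a wide region.

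ULK2, the paralog of ULK1, had the peak with the highest score of the 4, but not at its promoter. ULK2 (ENSG00000083290) lies on the minus strand at chr17:19674142-19771249 and has 10 annotated TSSs spread over 94012 bp. The peak at chr17:19655638-19656819 had a score of 569.64 (rank 88), and 98.5% of peaks scored lower. Its centre lay 17915 bp beyond the 3′ end of the gene, 21009 bp downstream of the last internal TSS and 115021 bp from the canonical one. Measured to any TSS, 19.2% of protein-coding genes had a nearer peak. Measured to the canonical TSS, by which 27.3% of protein-coding genes had a peak within 50 kb, the nearest peak of ULK2 was another one at 88441 bp, and 41.4% had a nearer one. The assignment of the strong peak to ULK2 thus rested on internal TSSs, and with those of protein-coding transcripts alone its distance was 43212 bp.

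Other genes were closer to this peak than ULK2. The nearest protein-coding gene was ALDH3A1, an aldehyde dehydrogenase, at 3972 bp, and the nearest annotated gene of any kind was the processed pseudogene ENSG00000230607, at 2329 bp. The interval of 1182 bp was wider than 99.4% of peaks. It held 5 consensus matches, from 391 bp on 1 side of the centre to 502 bp on the other, and no longer form. Of the 2195 peaks without the longer form, 26 scored higher. The central 200 bp held no consensus match and no window with fewer than 2 mismatches to the longer form. The 2 consensus matches closest to the longer form are shown, both on the minus strand:
ULK2 match 127 bp from the centre, chr17:19656351-19656359: ccctttgtccTGACTCGGCagaggcttcc
ULK2 match 210 bp from the centre, chr17:19656434-19656442: cctggcaggcTGACTTAGCcaggatggcc

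The first of these differed from the longer form by A7G and the second by C6T. The peak also held the AP-1 letters and the half-site TGCTGAC, and its GC content was 56.1%, above 83.3% of peaks. Farther out, ULK2 had peaks of score 77.43 at 88441 bp, 221.16 at 126220 bp and 101.00 at 191900 bp from a TSS. These lay within 1747 bp of a TSS of AKAP10, 432 bp of ALDH3A2 and 2064 bp of SPECC1, respectively. The peaks near AKAP10 and ALDH3A2 held the longer ARE, and the one near SPECC1 did not.

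RB1CC1, the scaffold of the complex, had the peak nearest to a TSS of all 5 genes and the weakest of the 4. RB1CC1 (ENSG00000023287) lies on the minus strand at chr8:53535018-53658403. Its peak at chr8:53625954-53626307 had a score of 56.16 (rank 5018), and 11.7% of peaks scored lower. The centre lay 853 bp downstream of the nearest TSS and 865 bp downstream of the canonical one, in intron 1. Among protein-coding genes, 4.51% had a peak nearer to a TSS. No other protein-coding gene had a TSS within 148140 bp, where ALKAL1 begins, and the nearest gene of any kind was the long non-coding RNA gene ENSG00000288818, at 1035 bp.

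The RB1CC1 peak was the one that held the longer ARE. The match lay on the minus strand at chr8:53626049-53626057, 77 bp from the peak centre and 942 bp downstream of the canonical TSS. Its letters are not printed here. Of the 3478 peaks of the list with the longer form, 3190 scored higher than this one. The peak was narrow, 354 bp, with 9.06% of peaks narrower, and its GC content was 55.1%, above 81.1% of peaks. It is listed for RB1CC1 in the study's annotation sheet. The only other peak drawn for RB1CC1 lay 228032 bp from a TSS and had a score of 50.19, near the lower limit of the list.

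**Figure D3:**
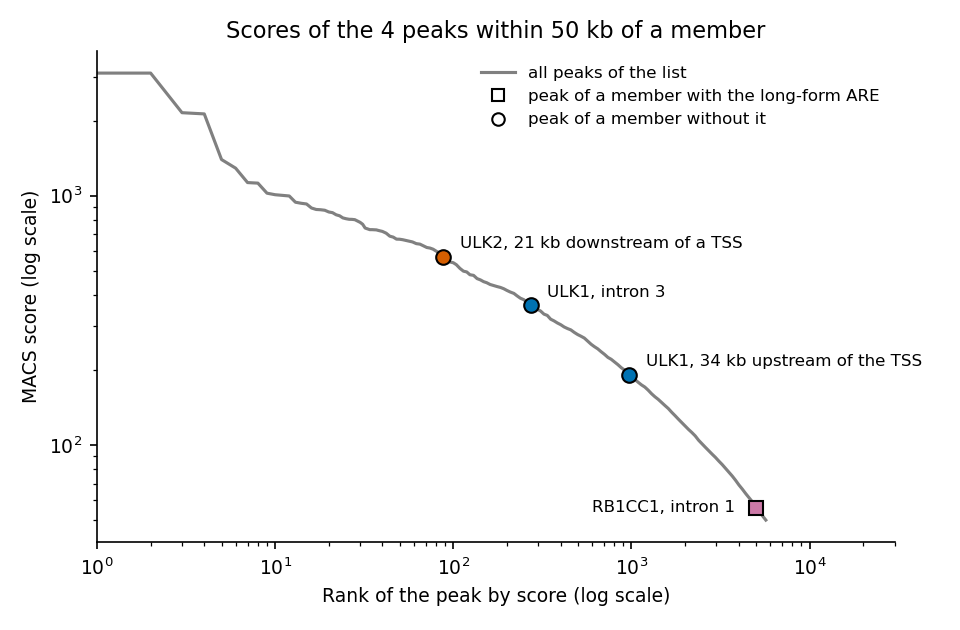
MACS score (y axis, log scale) against rank by score (x axis, log scale) for all peaks of the list (line) and the 4 peaks within 50 kb of a gene of the ULK complex (symbols). Circles are peaks without the longer ARE and the square is the peak with it. The 3 peaks of ULK1 and ULK2, with scores of 191.33 to 569.64, sit in the upper part of the list, and the RB1CC1 peak, 56.16, sits near its end.

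The peak with the longer ARE had the lowest score of the 4. The 3 peaks without the longer form had scores of 569.64, 363.96 and 191.33, and the peak with it had 56.16. Of the peaks scoring above each of the 4, in that order, 70.1%, 72.3%, 76.5% and 63.7% held the longer form. The share in the whole list was 61.3%. The best window of each of the 3 peaks without the longer form had 1 mismatch to it, as 27.7% of the list did. All 4 held the consensus, as 87.4% of the list did, and all 4 had a GC content above the upper quartile of the list, 52.7%. Within the central 200 bp, 2 of the 4 held the consensus, the upstream peak of ULK1 and the peak of RB1CC1. These are 4 peaks, and no relation was tested.

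ATG13, the adaptor that ULK1 and mTORC1 phosphorylate, had the most distant nearest peak of the 5 genes. ATG13 (ENSG00000175224) lies on the plus strand at chr11:46639077-46696368 and has 28 annotated TSSs, more than any other gene of the complex. Its nearest peak lay 291241 bp from a TSS, and 76.9% of protein-coding genes had a nearer one. That peak, at chr11:46985298-46985875, had a score of 276.31 (rank 503) and a longer ARE 3 bp from its centre, and the nearest TSS was that of CSTPP1, at 27255 bp.

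ATG101, which pairs with ATG13 and stabilizes it, also had no peak near it. ATG101 (ENSG00000123395) lies on the plus strand at chr12:52463030-52471279, on the same chromosome as ULK1. Its nearest peak was 211152 bp from a TSS, and 68.4% of protein-coding genes had a nearer one. It had a score of 52.93 and held no consensus match, and its nearest protein-coding TSS was that of the keratin gene KRT86, at 6527 bp. Within 500 kb of its canonical TSS, ATG101 had 5 peaks and ATG13 had 3, against a median of 3 for protein-coding genes. The median protein-coding gene had its nearest peak at 105248 bp.

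**Figure D4:**
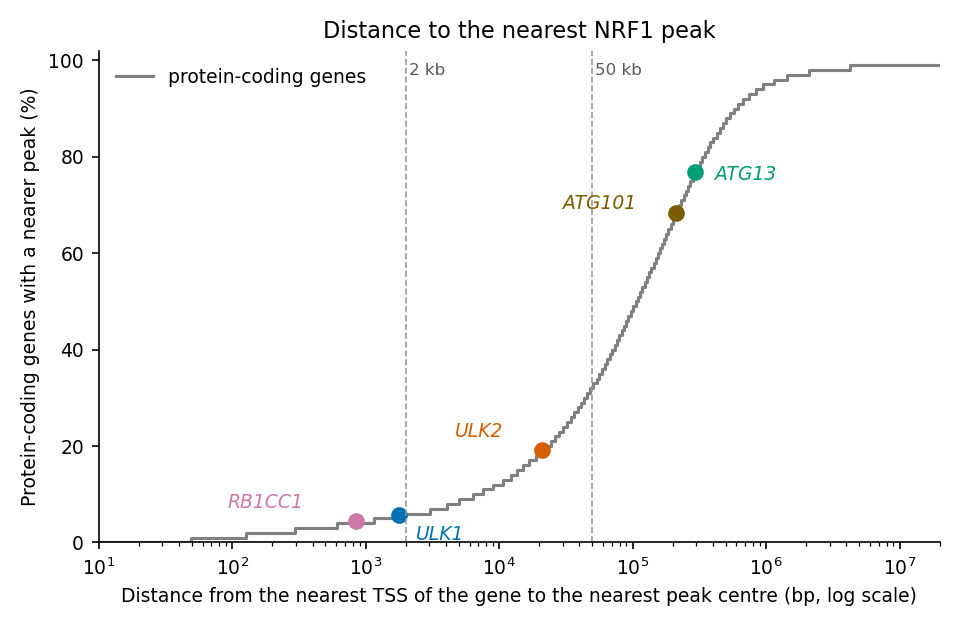
Share of protein-coding genes with a nearer peak (y axis, %) against the distance from a gene's nearest TSS to the nearest peak centre (x axis, bp, log scale). The line is all protein-coding genes and the points are the 5 genes of the ULK complex, with dashed lines at 2 kb and 50 kb. RB1CC1 and ULK1 lie left of 2 kb, ULK2 between the dashed lines at 21009 bp, and ATG101 and ATG13 right of 50 kb.

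The longer ARE was present near every gene of the complex, so that among these 5 letters alone did not separate genes with a peak from those without. Such matches are common, with 30567 within 50 kb of a TSS of the 20163 protein-coding genes. The share of those genes with a match is not given here. Within 50 kb of a TSS there were 6 matches at ULK1, 2 at ULK2, 3 at ATG13, 4 at RB1CC1 and 3 at ATG101. Of these 18 matches, 1 lay in a peak, the one in intron 1 of RB1CC1. Of all longer AREs within 50 kb of a protein-coding TSS, 8.84% lay in a peak. Within 2 kb of a TSS there were 2 matches, at RB1CC1 and ATG101, and the one at ATG101 lay outside any peak. Among longer AREs within 2 kb of a protein-coding TSS, 11.3% lay in a peak. The shorter consensus had 675 matches within 50 kb of the 5 genes, of which 8 lay in a peak, 2 at ULK1, 5 at ULK2 and 1 at RB1CC1, where 0.484% of such matches near protein-coding genes did. The 5 at ULK2 all lay in 1 interval of 1182 bp, to which other genes were closer.

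Some of the longer AREs outside peaks are shown because they carry the full 9 letters and still had no peak over them. Capitals again mark the 9 bases:
ULK1, chr12:132347749-132347757, plus strand: ctgtctttgcTGACTCAGCagtcgtgcct
ULK2, chr17:19702158-19702166, minus strand: gtaagagccaTGAGTCAGCatcagataaa
ATG13, chr11:46656056-46656064, plus strand: caagcagtccTGACTCAGCctcctgagta
ATG101, chr12:52461483-52461491, plus strand: gcgattctccTGACTCAGCctccggagta

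The ULK1 match lay 31414 bp upstream of the TSS and 2147 bp from the edge of the upstream peak. It overlapped another match on the other strand and formed the 13-base palindrome TGCTGACTCAGCA. Of the 184 such palindromes in the genome, counting its form with G in the middle, 13 lay in a peak (7.07%). The ULK2 match lay in intron 17. The ATG13 match lay in intron 2. The ATG101 match lay 1543 bp upstream of its nearest TSS and 2275 bp upstream of the canonical one. Of the 6 matches near ATG13 and ATG101, 3 sat within the same 16 bases, TCCTGACTCAGCCTCC, the printed ones of ATG13 and ATG101 among them. Of the 3031 longer AREs in that context in the genome, 4 lay in a peak (0.132%), against 7.37% of all longer AREs. Alu repeats are known to carry a closely related stretch. No repeat annotation was used here, and both sequence contexts were chosen after the matches were seen.

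**Figure D5:**
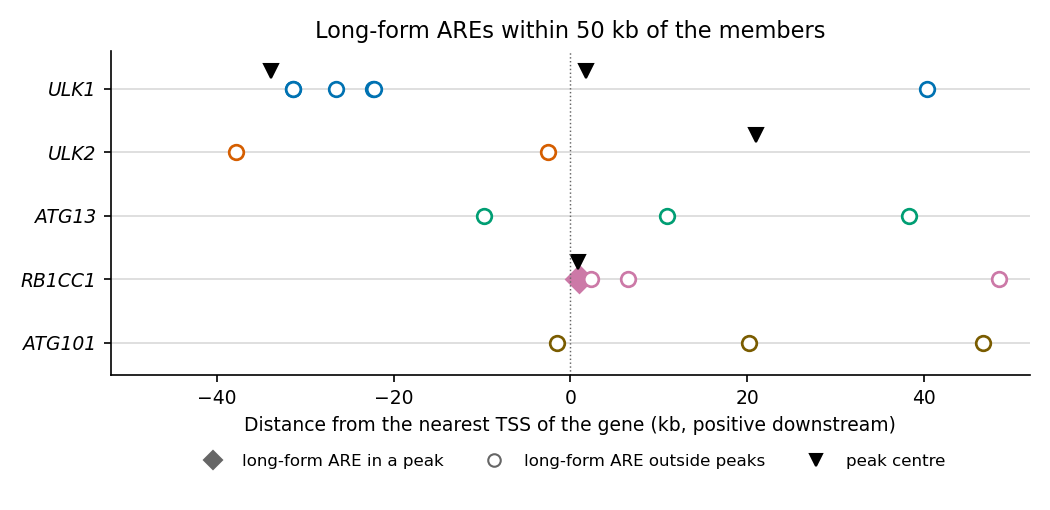
Longer AREs within 50 kb of a TSS of each gene of the ULK complex, by distance from the nearest TSS (x axis, kb, positive downstream), with 1 row a gene. The diamond is a match inside a peak, open circles are matches outside peaks, and black triangles are peak centres. Each symbol is placed by its own nearest TSS, so gaps between symbols in a row are not genomic distances. The ULK2 match in intron 17, for example, lay 45343 bp from the nearest peak edge. Of 18 matches, 1 lies in a peak, at RB1CC1, and no match lies under the peaks of ULK1 or ULK2.

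The genes around the ULK complex in the autophagy pathway were counted in the same way, over 8 lists of 54 genes. Of these, 27 (50.0%) had a peak within 50 kb and 8 (14.8%) within 2 kb, against 32.7% and 6.03% of all protein-coding genes. Any TSS counted here too, and the numbers of TSSs of the listed genes were not compared with those of other genes. A peak with a score of at least 100 lay within 2 kb of 4 of the 54 (AKT1S1, GABARAPL1, SQSTM1 and TBK1) and of 3.01% of protein-coding genes, and the other 4 of the 8 had scores of 54.64 to 98.92. The study had already picked out SQSTM1, GABARAPL1 and ULK1, by combining this ChIP library with a microarray of cells under MG132 and NRF1 knockdown. The lists were chosen with earlier results known. Of the 3 related kinases outside the complex, 2 had a peak within 50 kb and none within 2 kb. Of the 7 AMPK subunit genes, which encode the kinase that activates ULK1, 3 had a peak within 50 kb and none within 2 kb. Of the 5 mTORC1 genes, 4 had a peak within 50 kb, and AKT1S1, which encodes an inhibitory subunit, had one of score 255.25 at 79 bp.

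Downstream of the ULK complex, 1 of the 6 genes of the class III PI3-kinase complex that ULK1 acts on had a peak within 50 kb, and none had one within 2 kb. Of the 8 genes of ATG9, ATG2 and the WIPI proteins, which supply membrane, 5 had a peak within 50 kb and none within 2 kb. Of the 11 conjugation genes, which attach ATG8 proteins to membrane, 5 had a peak within 50 kb. Within 2 kb these were ATG4D (score 68.31, at 305 bp) and ATG5 (score 57.99, at 14 bp). Of the 7 ATG8 genes, 3 had a peak within 2 kb, with scores of 302.72 at GABARAPL1, 98.92 at MAP1LC3B2 and 54.64 at MAP1LC3B. Of the 7 genes for cargo receptors and TBK1, a kinase of the receptor p62, 4 had a peak within 50 kb, and 2 within 2 kb. These were SQSTM1, which encodes p62, with a score of 616.46, and TBK1, with 335.97.

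Among the 8 pathway genes with a peak within 2 kb, 4 had the longer ARE in it and 7 the consensus, where 61.3% and 87.4% of all peaks held them. The score of the ULK1 peak, 363.96, lay between those of SQSTM1 and TBK1. The peaks of SQSTM1, TBK1 and GABARAPL1 held the longer ARE, and those of ULK1 and AKT1S1 (score 255.25) did not. The RB1CC1 peak held it, with a score close to those of ATG5 and MAP1LC3B, which lacked it. No comparison between these lists and the ULK complex was tested.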

How the data were processed

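NRF1 ChIP-seq peaks of 1 library from HCT116 cells (MG132, 1 µM, 16 h) were used, and the input library was not analysed here. The authors aligned the reads to hg19 (Bowtie2 2.2.6), and peaks came from MACS 1.4.2. The deposited list gives a position and a score per peak, a negative log10 p-value multiplied by 10. MACS settings, duplicate removal and the control library are not given in the sources used here. Depth is unknown.

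The 5678 peaks on assembled chromosomes were kept, and 5 on other contigs and, for sequence searches, 5 with undetermined bases were left out. Distances ran from peak centres to GENCODE 44 TSSs lifted to GRCh37. Motifs were searched on both strands of the hg19 sequence, and the searches were tested on simulated data. Python 3.11.15, pandas 2.3.3 and pysam 0.24.0 were used. Named genes were the 5 members, the other genes nearest to their peaks, up to 3 pathway genes by score per list with a peak within 2 kb, SQSTM1 and GABARAPL1. The members and lists were chosen with earlier results of these data known. Sequences on chromosome 8 are not printed. Microarray and ChIP-qPCR values were not used. Alternatives were other windows, a score of at least 100, edge distances, other TSS sets, merged intervals and other ARE forms.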

Additional observations from a re-analysis of the deposited data

How the results depend on the processing

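Of 29 alternatives, 19 gave a count within 1.5 times the reported one. The number of genes of the complex with a peak within 50 kb, 3, was 3 or 2 in the 7 alternatives run for it. It was 2 with a 20 kb window (without ULK2), a score of at least 100 (without RB1CC1) or the outermost 5′ end alone (without ULK2, 88441 bp away). The number within 2 kb fell from 2 to 1 with a 1 kb window (RB1CC1 alone), with a score of at least 100 (ULK1 alone) or with the outermost 5′ end (ULK1 alone, since RB1CC1 was then 32273 bp away). Peaks within 50 kb fell from 4 to 2 with 20 kb. Peaks with an ARE fell from 4 to 1 for the longer form and to 2 in the central 200 bp. The number of AREs in a peak, 1 for the longer form, was 8 for the consensus and 0 with a score of at least 100. Protein-coding genes with a peak within 50 kb numbered 6591, 3541 with a score of at least 100, and all annotated genes 15880. No paired analysis was possible because there was 1 ChIP library. Without read counts, a replicate or an untreated library, neither the depth behind a peak nor a change with MG132 can be given.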
